A study of Sus scrofa with 15 samples.

Results

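The genes described are 10 regulators and components of antigen processing and presentation: CD74, CIITA, B2M, TAP1, TAP2, TAPBP, NLRC5, PSMB8, PSMB9 and PSMB10. They were chosen by name, and each was looked up in the count table through the table of pig gene symbols. Of the 31908 identifiers in the count table, 9 belonged to these genes. The symbol B2M was paired with an identifier that had no row, so B2M was not analysed here.

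The RNA came from the livers of male Duroc x Large White x Landrace piglets. Piglets of the LPS group had received 80 μg/kg of lipopolysaccharide (LPS), the endotoxin of the gram-negative cell wall, injected into the peritoneum, and the liver was collected 4 h later. Piglets of the CON group had received sterile saline. The 6 libraries compared, 3 from each group, were the input fractions of polyadenylated RNA set aside before m6A immunoprecipitation. The labels do not tie a library to a single piglet, so the p-values measure the spread between libraries, which may be partly technical.

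Antigen presentation follows a class I route for proteins made inside the cell and a class II route for proteins taken up from outside. In the class I route the proteasome cuts cytosolic proteins, the TAP1 and TAP2 transporter carries the peptides into the endoplasmic reticulum, tapasin (TAPBP) holds the empty class I molecule to the transporter, and B2M completes the molecule. Interferon-gamma can induce PSMB8, PSMB9 and PSMB10, which replace the catalytic subunits of the proteasome to form the immunoproteasome, and NLRC5 is the transactivator of the class I genes. In the class II route, used mainly by dendritic cells, B cells and macrophages, CD74 (the invariant chain) escorts the class II molecule and blocks its groove, and CIITA is the master transactivator of the class II genes and of CD74. In liver both hepatocytes and Kupffer cells carry class I, while class II belongs mainly to the resident antigen-presenting cells. Whole liver was sequenced, so fewer cells of a type and less RNA per cell cannot be told apart.

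The CON libraries held 5927348 to 10351491 counts each and the LPS libraries 4348478 to 19967417. The LPS libraries resembled each other less than the CON libraries did. Pearson correlations of log2 CPM (counts per 1000000 counts of a library) across genes were 0.938 to 0.948 within the CON group and 0.844 to 0.894 within the LPS group. Leaving out LPS replicate 2 took the genes called by edgeR from 7 higher and 0 lower to 512 higher and 470 lower, and leaving out LPS replicate 3 gave 39 higher and 19 lower. Values of the 9 genes are therefore also given without LPS replicate 2.

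None of the 9 genes passed the test between the groups. A gene was called when its edgeR quasi-likelihood p, adjusted by the Benjamini-Hochberg method over all 12774 tested genes, was below 0.05 and its fold change exceeded 1.5. By this rule 0.0548% of all tested genes were called higher and 0% lower in the LPS group, and 0 of the 9 genes were called. At an unadjusted p below 0.05, 6.18% of tested genes were higher and 6.33% lower, against 0 of the 9. The LPS and CON values overlapped for each of the 9 genes, whereas 6.52% of tested genes had all LPS values above the CON values and 9.8% had all below. The estimate was above 0 for 7 genes and below 0 for 2, and the median log2 fold change was 0.19, beside 0.01 over all tested genes. DESeq2 called 1.89% of genes higher and 0.976% lower, and limma-voom 0.0313% and 0.0157%; neither called any of the 9.

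**Figure D1:**
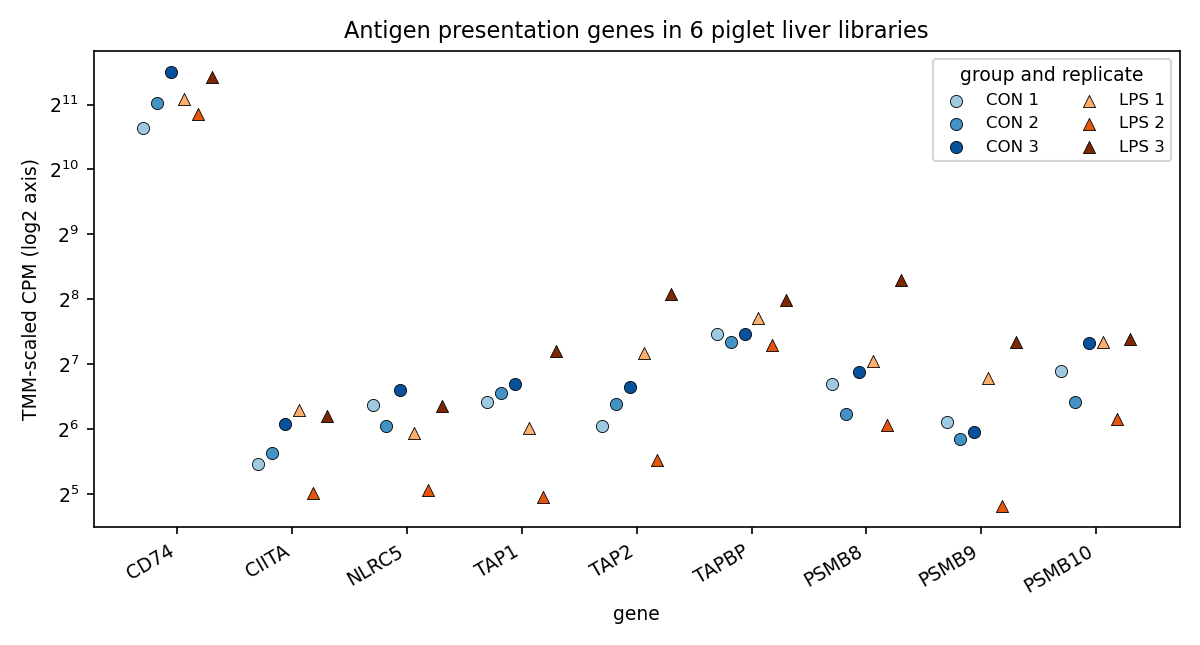
TMM-scaled CPM of the 9 genes in each CON and LPS library (log axis), 1 point per library. LPS replicate 2 is the lowest of all 6 libraries for 8 genes and LPS replicate 3 the highest for 6, and the groups overlap for every gene.

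On the log2 scale each gene except CD74 spanned more within the LPS group than within the CON group. CD74 spanned 0.57 in the LPS and 0.85 in the CON libraries, and PSMB10 1.23 and 0.90. LPS replicate 2 held the lowest of the LPS values for all 9 genes and the lowest of the 6 values for 8, CD74 being the exception. LPS replicate 3 held the highest of the 6 values for 6 genes. Expressed as the log2 ratio to the CON mean, the median over the 9 genes was 0.44, -0.72 and 0.56 in the LPS replicates, in numerical order. The CON replicates had medians of 0.02, -0.10 and 0.28, and the median over all tested genes stayed between -0.05 and 0.03 in each of the 6 libraries. LPS replicate 1 exceeded every CON library for 6 genes, LPS replicate 3 for 7 and LPS replicate 2 for 0, and LPS replicate 2 lay below every CON library for 8. The share of all tested genes with these patterns was not counted, so the patterns are not shown to be particular to the 9 genes.

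Without LPS replicate 2, 3 of the 9 genes (TAP2, PSMB9 and PSMB8) had an unadjusted p below 0.05 with higher LPS values, while 11.3% of the 13632 genes tested in that fit did so. None of the 9 was called in that fit, in which 3.76% of genes were called higher and 3.45% lower. The estimate was then above 0 for 8 genes, NLRC5 being the exception. LPS replicate 2 held the lowest LPS value for all 9 genes, so leaving it out was bound to raise their estimates. The median log2 fold change of the 9 genes was 0.44 without LPS replicate 2 and 0.02 without LPS replicate 3.

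**Figure D2:**
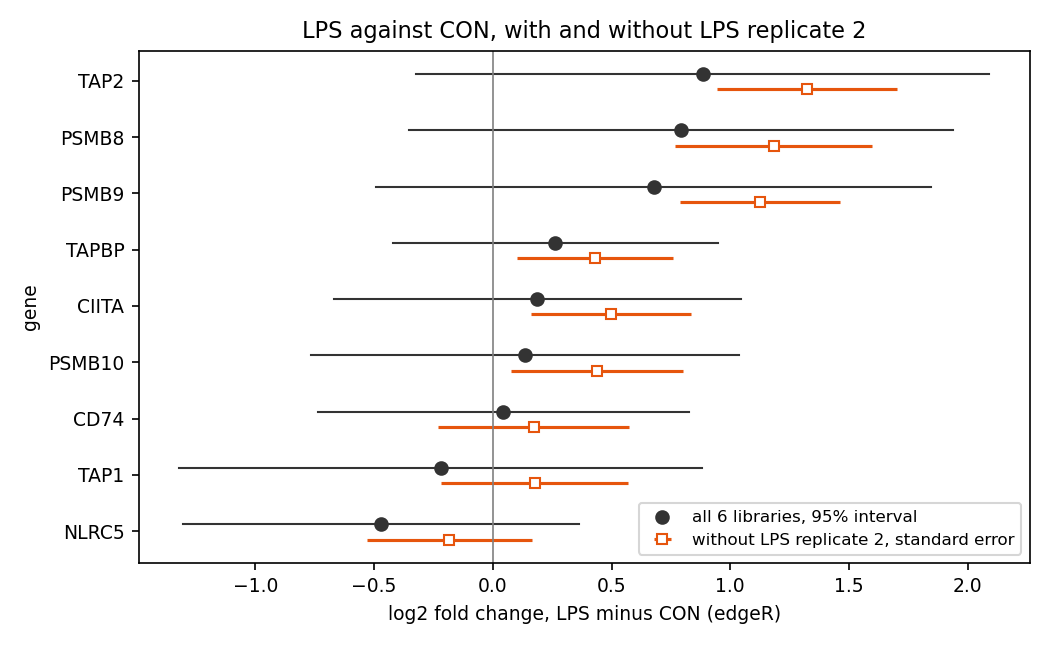
Log2 fold change of LPS against CON for the 9 genes by edgeR, with all 6 libraries (filled points, 95% interval) and without LPS replicate 2 (open squares, standard error). All 9 intervals span 0. Every estimate is further to the right without LPS replicate 2, which follows from that library being the lowest of the LPS group for all 9 genes.

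TAP2, which pairs with TAP1 to form the peptide transporter, had the highest estimate of the 9 genes. Its values were 66.0, 83.6 and 101 CPM in the CON libraries and 145, 46.1 and 271 CPM in the LPS libraries. LPS replicates 1 and 3 lay above every CON library and LPS replicate 2 below every one of them. The log2 fold change was 0.88 ± 0.54 (SE), with a 95% interval from -0.32 to 2.09 and an adjusted p of 0.535 by edgeR. Without LPS replicate 2 it was 1.32 ± 0.38 with an adjusted p of 0.0570 by edgeR, and without LPS replicate 3 it was 0.21.

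TAP1, the partner of TAP2 in the transporter, did not share this position. Its values were 85.6, 93.9 and 104 CPM in the CON libraries, a narrow range, and 65.0, 30.9 and 147 CPM in the LPS libraries. Here LPS replicates 1 and 2 were below every CON library and LPS replicate 3 alone was above. The log2 fold change was -0.22 ± 0.49 (adjusted p = 0.891, edgeR), with an interval from -1.32 to 0.88. Its direction followed single libraries, at 0.18 without LPS replicate 2 and -0.96 without LPS replicate 3.

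TAPBP, the tapasin bridge between transporter and class I molecule, varied least within the CON group. It had 177, 163 and 176 CPM in the CON libraries and 209, 157 and 254 CPM in the LPS libraries, so that LPS replicates 1 and 3 were above the CON range and LPS replicate 2 just below. The log2 fold change was 0.26 ± 0.31 (adjusted p = 0.764, edgeR), with an interval from -0.42 to 0.95, and 0.43 ± 0.33 without LPS replicate 2.

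PSMB8 and PSMB9, the immunoproteasome subunits encoded beside the transporter genes, had the next highest estimates after TAP2. PSMB8 had 104, 75.6 and 118 CPM in the CON libraries and 132, 66.9 and 316 CPM in the LPS libraries. PSMB9 had 69.1, 57.3 and 62.3 CPM in the CON libraries and 111, 28.3 and 163 CPM in the LPS libraries. For both genes LPS replicates 1 and 3 lay above the CON libraries and LPS replicate 2 below them. The log2 fold change was 0.79 ± 0.51 for PSMB8 (adjusted p = 0.560, edgeR; interval from -0.35 to 1.94) and 0.68 ± 0.52 for PSMB9 (adjusted p = 0.634; interval from -0.49 to 1.85). Without LPS replicate 2 the values were 1.18 ± 0.41 (adjusted p = 0.109, edgeR) and 1.12 ± 0.34 (adjusted p = 0.0663). Without LPS replicate 3 they were 0.02 and 0.16.

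PSMB10, the remaining induced subunit, lies apart from the other members on chromosome 6. It had 119, 85.9 and 161 CPM in the CON libraries and 162, 71.7 and 168 CPM in the LPS libraries. Its CON values spread more widely on the log2 scale than those of any other member, and LPS replicates 1 and 3 barely passed the highest of them. LPS differed from CON by a log2 fold change of 0.14 ± 0.40 (adjusted p = 0.919, edgeR), with an interval from -0.77 to 1.04, and of 0.44 ± 0.36 without LPS replicate 2. In the deposited coordinates 2993 of the 6072 exon bases of PSMB10 (49.3%) were also exon of PSKH1 on the other strand, which had 132 to 371 counts per library. Another 854 bases (14.1%) were shared with CTRL on the same strand, which had 0 counts in every library. The sources used here give neither the strand setting nor the handling of shared bases, so the PSMB10 counts are uncertain to that extent.

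The induced subunits take the places of PSMB5 (by PSMB8), PSMB6 (by PSMB9) and PSMB7 (by PSMB10) in the proteasome core. The symbol table did not pair PSMB5 or PSMB6 with an identifier, and PSMB7 served as denominator for all 3. Reads of PSMB8 per read of PSMB7 were 5.54, 5.09 and 6.50 in the CON libraries and 6.25, 3.65 and 10.004 in the LPS libraries, a mean log2 difference of 0.11. For PSMB9 the ratios were 3.68, 3.86 and 3.42 against 5.23, 1.54 and 5.15, a difference of -0.08 that turned to 0.51 without LPS replicate 2. For PSMB10 they were 6.37, 5.79 and 8.84 against 7.68, 3.91 and 5.33, a difference of -0.34. LPS replicate 2 had the lowest ratio for all 3 subunits. The groups overlapped each time, and exact two-sided permutation p-values over the 6 libraries were 0.8, 1 and 0.4, where 0.1 is the smallest that 3 against 3 allows. Set against the summed reads of 11 core subunits, PSMB8 held 15.2%, 14.2% and 18.2% in the CON libraries and 18.1%, 11.4% and 36.0% in the LPS libraries. The corresponding share of PSMB9 was 10.1%, 10.8% and 9.59% against 15.1%, 4.83% and 18.5%. LPS replicate 3 thus held the highest share of both subunits and LPS replicate 2 the lowest. For PSMB10 the share was 17.5%, 16.1% and 24.8% against 22.3%, 12.2% and 19.1%. There LPS replicate 2 was again lowest, but CON replicate 3 was highest.

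NLRC5, the class I transactivator, had the lowest estimate of the 9 genes. It had 82.9, 65.9 and 96.8 CPM in the CON libraries and 61.5, 33.4 and 82.3 CPM in the LPS libraries. LPS replicates 1 and 2 were below the CON range and LPS replicate 3 inside it. Its log2 fold change was -0.47 ± 0.37 (adjusted p = 0.643, edgeR; interval from -1.30 to 0.36). Its estimate stayed below 0 under every alternative tried, from -0.77 without LPS replicate 3 to -0.18 without LPS replicate 2.

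CIITA, the class II transactivator, had 44.2, 49.5 and 67.9 CPM in the CON libraries and 78.3, 32.2 and 73.6 CPM in the LPS libraries. The difference on the log2 scale was 0.19 ± 0.38 (adjusted p = 0.877, edgeR; interval from -0.67 to 1.04). LPS replicates 1 and 3 were again above and LPS replicate 2 below the CON range, and without that library the value was 0.50 ± 0.34.

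CD74, by far the most abundant of the 9 genes, showed the least spread within the LPS group. It had 1596, 2083 and 2886 CPM in the CON libraries and 2177, 1846 and 2746 CPM in the LPS libraries, so that every LPS value lay inside the CON range. The log2 fold change was 0.04 ± 0.35 (adjusted p = 0.976, edgeR), and the interval from -0.74 to 0.82 leaves room for a change of over 1.5-fold either way. Without LPS replicate 2 it was 0.17 ± 0.40. Across the LPS libraries the log2 values of CD74 spanned 0.57, beside 2.55 for TAP2, 2.52 for PSMB9, 2.25 for TAP1 and 2.24 for PSMB8. LPS replicate 3 exceeded LPS replicate 2 by 5.87-fold for TAP2, 5.75-fold for PSMB9, 4.76-fold for TAP1 and 4.73-fold for PSMB8.

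TAP2, PSMB8, TAP1 and PSMB9 were neighbours on chromosome 7 of the deposited table, for which the sources used here give no genome build. TAP2 (ENSSSCG00000025593) lay at chr7:25043722-25057148, PSMB8 (ENSSSCG00000026951) at chr7:25053132-25073046 and TAP1 (ENSSSCG00000025618) at chr7:25062773-25071862, all on the minus strand. PSMB9 (ENSSSCG00000001463) lay at chr7:25055594-25078594 on the plus strand. The gene spans overlapped, but the only exon bases shared among these 4 genes were 12 between TAP2 and PSMB9. TAPBP (ENSSSCG00000001507) lay further along the same chromosome at chr7:29663446-29676335 on the minus strand. The remaining genes were CD74 (ENSSSCG00000033262) at chr2:151402212-151433844, CIITA (ENSSSCG00000007901) at chr3:32172214-32230780 and PSMB10 (ENSSSCG00000031781) at chr6:28540807-28548152, on the minus strand, and NLRC5 (ENSSSCG00000039751) at chr6:18937665-19036820 on the plus strand.

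Within this cluster TAP1 stood lower relative to its neighbours in every LPS library. The comparison was chosen after the values had been seen and is given as a description. Exact two-sided permutation p-values for TAP2, PSMB8 and PSMB9 to TAP1 were 0.1 each (0.267 adjusted over 8 ratios). That is the smallest p that 3 against 3 allows, and it is no support for pairs chosen in this way. Reads of TAP2 per read of TAP1 were 0.771, 0.890 and 0.969 in the CON libraries and 2.22, 1.49 and 1.84 in the LPS libraries. For PSMB8 the ratios were 1.21, 0.805 and 1.14 against 2.03, 2.16 and 2.15, the LPS values lying close together although the counts themselves differed widely. For PSMB9 they were 0.807, 0.611 and 0.599 against 1.70, 0.915 and 1.11. None of these 3 ratios overlapped between the groups, and the mean log2 differences were 1.07, 1.03 and 0.85. They remained at 0.92 or more, 0.85 or more and 0.60 or more when any single library was left out. Over all genes, 11.8% had ratios to TAP1 that were higher in every LPS library than in any CON library, so higher ratios to TAP1 were not particular to these neighbours. The other 5 members overlapped between the groups in their ratio to TAP1.

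**Figure D3:**
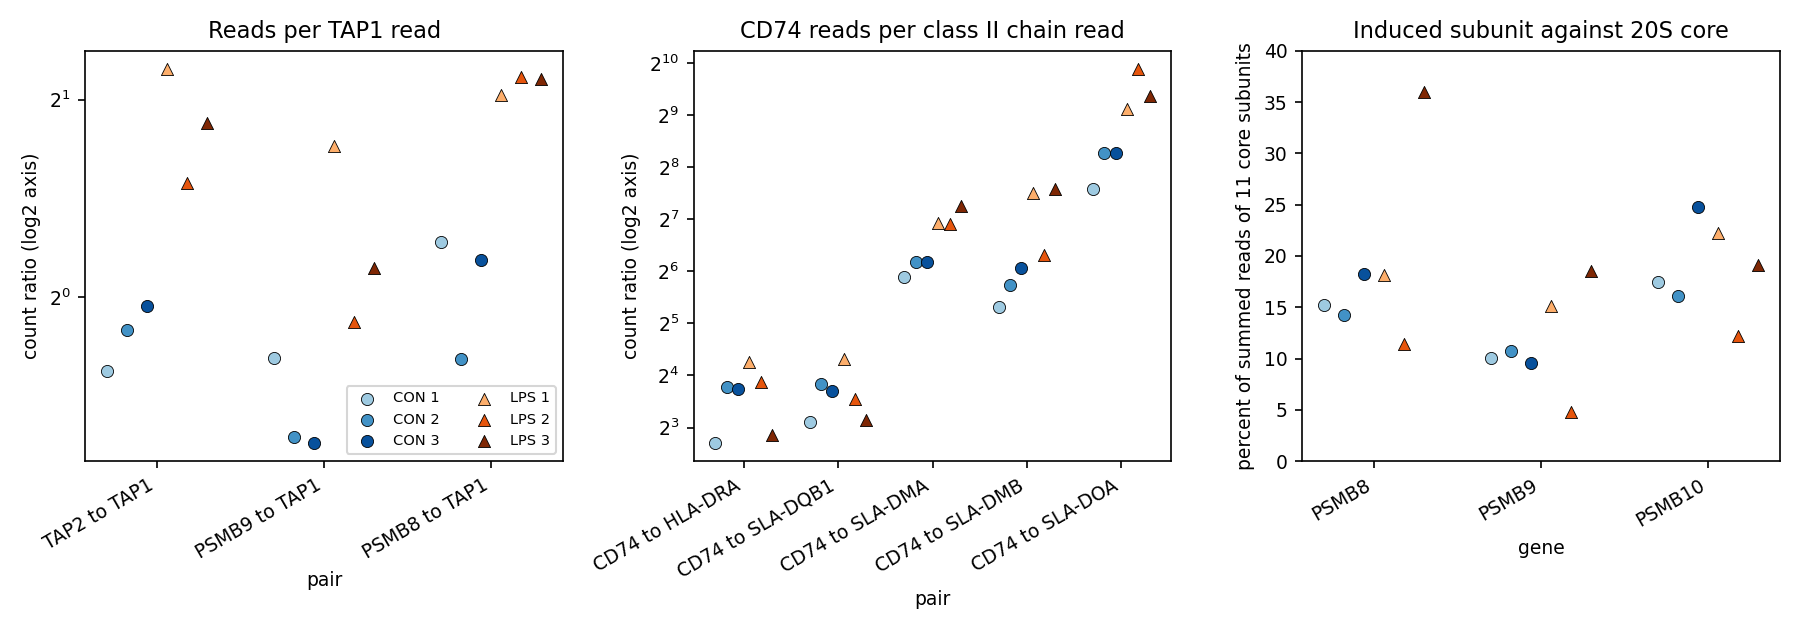
Count ratios within each library. Left, reads of TAP2, PSMB9 and PSMB8 per TAP1 read (log2 axis), where the groups do not overlap; middle, CD74 reads per read of each class II gene (log2 axis), where they overlap for HLA-DRA and SLA-DQB1 only; right, reads of PSMB8, PSMB9 and PSMB10 as a percent of 11 summed core subunits, where LPS replicate 2 is lowest for all 3.

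Of the genes for class II chains, 5 were tested. HLA-DRA, the name the symbol table gives to the pig DR alpha chain, had 244, 152 and 215 CPM in the CON libraries and 114, 126 and 381 CPM in the LPS libraries (log2 fold change 0.02 ± 0.48). SLA-DQB1, the DQ beta chain, had 186, 146 and 221 CPM against 109, 157 and 311 CPM (0.07 ± 0.41). The DR alpha and DQ beta chains thus overlapped between the groups. Their partner chains had no row under their symbols, so neither peptide-presenting molecule was covered whole. How reads from near-identical class II copies were assigned is not known, so these counts are uncertain.

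SLA-DMA, SLA-DMB and SLA-DOA, which encode chains of the peptide-editing molecules DM and DO of the class II route, lay lower in every LPS library than in any CON library. HLA-DOB, the other DO chain, had 2 to 19 counts per library and was below the filter. SLA-DMA had 26.9, 28.7 and 39.9 CPM in the CON libraries and 17.9, 15.4 and 18.0 CPM in the LPS libraries, a log2 fold change of -0.90 ± 0.31 (adjusted p = 0.279, edgeR). SLA-DMB had 39.9, 39.2 and 42.9 CPM against 12.0, 23.1 and 14.3 CPM, a log2 fold change of -1.30 ± 0.33 (adjusted p = 0.198, edgeR). SLA-DOA had 8.31, 6.72 and 9.29 CPM against 3.92, 1.96 and 4.16 CPM, a log2 fold change of -1.26 ± 0.41 (adjusted p = 0.265, edgeR). None of the 3 passed the main test, and 9.8% of all tested genes likewise had all LPS values below the CON values. SLA-DMB was called by DESeq2 (-1.27, adjusted p = 0.0402) and by edgeR without LPS replicate 2 (-1.62, adjusted p = 0.0201). Those fits called 0.976% and 3.45% of all genes lower.

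CD74 reads per SLA-DMA read were 59.3, 72.5 and 72.3 in the CON libraries and 122, 120.0 and 153 in the LPS libraries. Per SLA-DMB read they were 39.95, 53.1 and 67.3 against 182, 80.0 and 192, and per SLA-DOA read 192, 310.1 and 310.5 against 555, 940.2 and 659. All LPS ratios lay above all CON ratios for these 3 genes, with mean log2 differences of 0.95, 1.43 and 1.41. Per HLA-DRA read the ratios overlapped, at 6.55, 13.7 and 13.4 against 19.1, 14.7 and 7.22. These pairs too were chosen after the values had been seen. Over all genes, 4.36% had a ratio to CD74 that was lower in every LPS library than in any CON library.

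Levels of different genes were compared as reads per kilobase of the deposited gene length, scaled to the same sum . In the CON group CD74 stood first at 1340 ± 236 (SD, n = 3), and TAP1 followed at 69.8 ± 12.6. PSMB8 at 66.4 ± 9.35, TAPBP at 61.4 ± 12.5 and PSMB9 at 59.6 ± 14.0 came next, and the ranges of these 4 genes from TAP1 to PSMB9 overlapped. PSMB10 at 38.2 ± 4.55 and TAP2 at 33.8 ± 6.20 overlapped each other and no other member. NLRC5 at 21.7 ± 2.42 and CIITA at 9.10 ± 0.977 each stood apart, so that both transactivators were the lowest of the 9 genes.

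**Figure D4:**
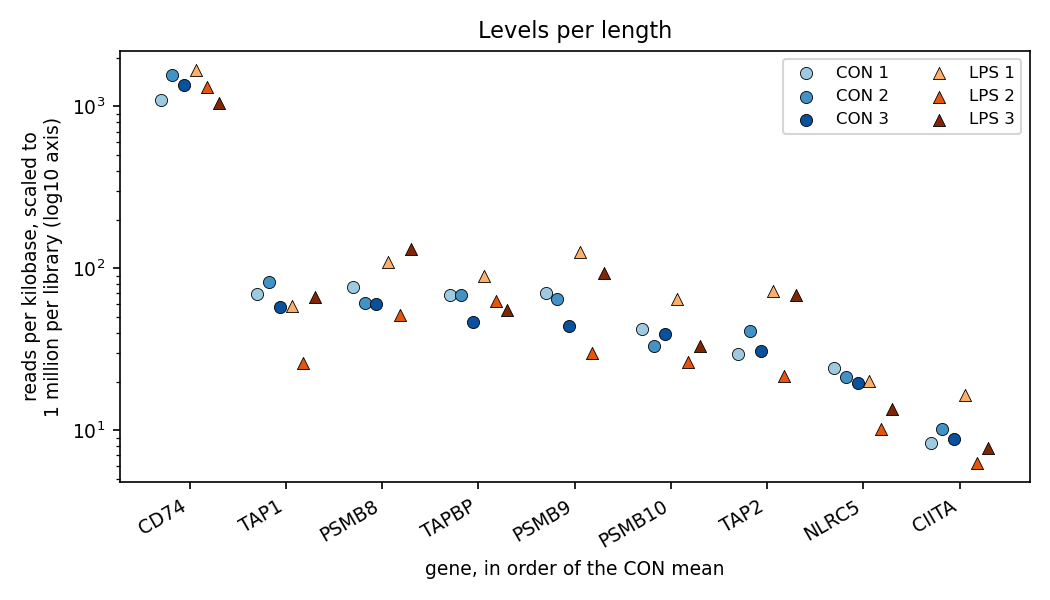
Level of each of the 9 genes per kilobase of gene length, scaled to the same sum in every library (log10 axis), 1 point per library, in the order of the CON mean. CD74 lies far above the rest, and NLRC5 and CIITA are lowest in the CON group.

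The wider pathway was described with 10 gene lists by role, which named 115 genes; 82 had a row and 79 were tested. None of the 79 was called by edgeR. At an unadjusted p below 0.05, 10 genes (12.7%) were higher and 6 (7.59%) lower, beside 6.18% and 6.33% of all tested genes. In every LPS library 3 (3.80%) were higher and 8 (10.1%) lower than in any CON library, beside 6.52% and 9.8% of all tested genes. Without LPS replicate 2, 8 were called higher and 3 lower, where 3.76% and 3.45% of all genes tested in that fit were called.

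**Figure D5:**
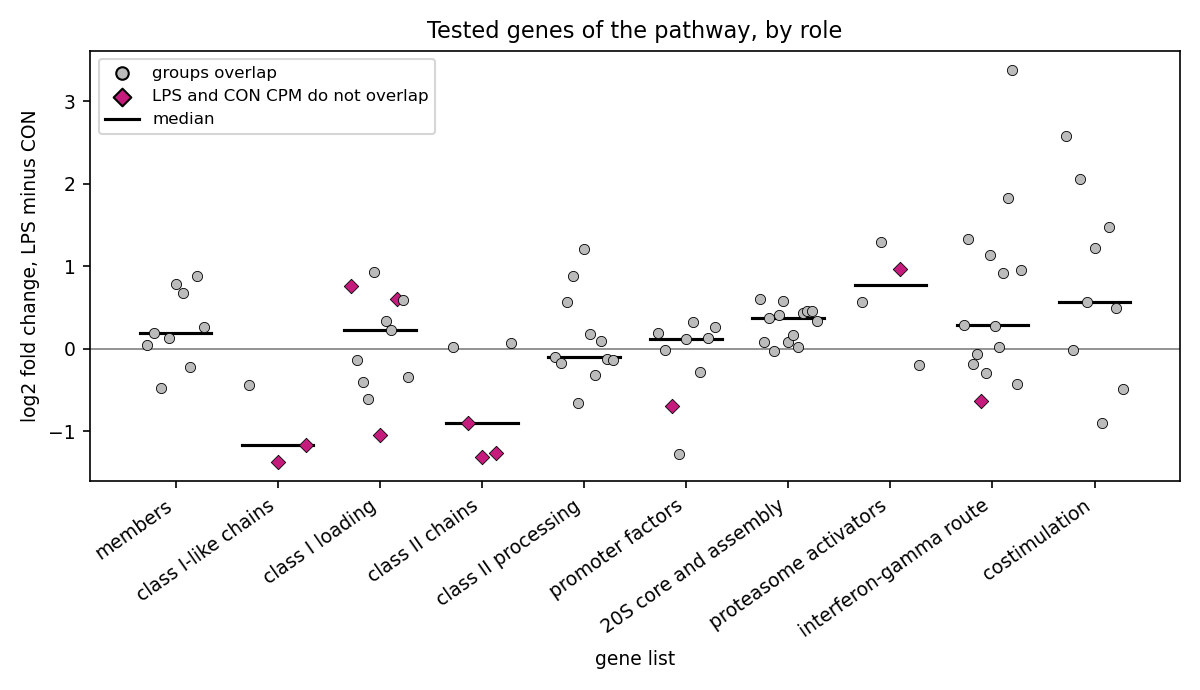
Log2 fold change of LPS against CON for the 9 genes (members) and for the tested genes of the wider pathway by role, 1 point per gene, with the median as a bar; the column of 20S core and assembly genes includes PSMB7. Diamonds are genes whose LPS and CON values do not overlap, and the members have none.

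Among class I molecules, the classical SLA genes had no row under their symbols, and the class I-like genes FCGRT, MR1 and HFE were tested. HFE, which joins B2M and regulates iron uptake, had 10.1, 6.56 and 8.998 CPM in the CON libraries and 2.83, 4.74 and 2.46 CPM in the LPS libraries (log2 fold change -1.37 ± 0.41, adjusted p = 0.236, edgeR). All its LPS values were below the CON values, and it was called lower without LPS replicate 2 (-1.70, adjusted p = 0.0458, edgeR). MR1, which presents vitamin metabolites, had a log2 fold change of -1.16 ± 0.59, and FCGRT, the neonatal Fc receptor, one of -0.44 ± 0.37.

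Of 11 tested genes of class I loading, 6 were above and 5 below 0. CALR, the chaperone calreticulin of the loading complex, had 1040, 806 and 881 CPM in the CON libraries and 1464, 1280 and 1889 CPM in the LPS libraries (0.76 ± 0.32, adjusted p = 0.367, edgeR). The LPS values, replicate 2 included, were all above the CON values, which none of the 9 genes showed. HSPA5, the chaperone BiP, had a log2 fold change of 0.93, and LNPEP, a peptide-trimming aminopeptidase, one of -1.04, with neither called.

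The rest of the proteasome lay mostly above 0. Of 12 tested core and assembly genes 11 were above 0, the median log2 value was 0.36, and none had an unadjusted p below 0.05. PSMB4 had 0.45, PSMB3 0.43, the assembly factor POMP 0.60 and PSMB7 0.46 ± 0.33. The subunits of the PA28 activator, PSME1 and PSME2, which interferon-gamma also induces, had log2 fold changes of 0.57 and 1.30. PSME2 had 7.42, 4.37 and 6.53 CPM in the CON libraries and 14.6, 5.24 and 25.1 CPM in the LPS libraries, with LPS replicate 2 inside the CON range, where all 3 immunoproteasome genes lay below it. It was called without LPS replicate 2 (1.70, adjusted p = 0.0319, edgeR). PSME3, the nuclear activator PA28 gamma, had 49.4, 47.2 and 66.2 CPM against 134, 76.9 and 109 CPM, without overlap (0.97 ± 0.33, adjusted p = 0.273, edgeR).

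The list of promoter factors, not all of which join NLRC5 and CIITA at their targets, had no called gene among 9 tested, with 5 above and 4 below 0. KAT2B, an acetyltransferase co-activator, had a log2 fold change of -1.27 ± 0.50 (adjusted p = 0.347, edgeR) and was called lower without LPS replicate 2 (-1.98, adjusted p = 0.0233). EZH2, a histone methyltransferase, had -0.69 and NFYC, a CCAAT-box binding subunit, -0.28. Of 11 tested genes of class II processing, 5 were above and 6 below 0. HSP90AA1, a cytosolic chaperone, had the smallest unadjusted p of these (1.21 ± 0.49, adjusted p = 0.360, edgeR), was called without LPS replicate 2 (1.59, adjusted p = 0.0399), and was followed by the lysosomal proteases CTSH (0.56) and CTSL (0.88).

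The interferon-gamma route to these genes had 14 tested genes, 9 above and 5 below 0, of which 4 had an unadjusted p below 0.05, all higher, beside 6.18% of all tested genes. These were SOCS3, IFNGR2, SOCS1 and JAK1, the last of them named after its values had been seen. Without LPS replicate 2, SOCS3, SOCS1, IFNGR2 and PTPN2, a phosphatase also named after its values had been seen, were called higher (1.31 to 3.94 on the log2 scale), beside 3.76% of all genes tested in that fit. SOCS3, a feedback inhibitor of cytokine receptors, had 17.5, 45.1 and 27.6 CPM in the CON libraries and 289, 18.8 and 627 CPM in the LPS libraries (3.38 ± 0.98, adjusted p = 0.230, edgeR). SOCS1, an inhibitor of JAK kinases, had 18.9, 15.2 and 27.7 CPM against 81.3, 8.998 and 129 CPM (1.83 ± 0.75, adjusted p = 0.364, edgeR). Both repeated the order of TAP2 and PSMB9, with LPS replicates 1 and 3 above the CON range and LPS replicate 2 within or below it. IFNGR2, a receptor chain for interferon-gamma, had 45.5, 50.6 and 59.3 CPM against 114, 59.2 and 218 CPM (1.33 ± 0.45, adjusted p = 0.274, edgeR). IFNG itself had 0 to 10 counts per library and was not tested.

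IRF1, a transcription factor that interferon-gamma induces and that acts on class I pathway genes, was singled out after its values had been seen. It had 136, 116 and 130.1 CPM in the CON libraries and 46.0, 38.0 and 252 CPM in the LPS libraries (-0.18 ± 0.64, adjusted p = 0.938, edgeR). As for TAP1, IRF1 was below the CON range in LPS replicates 1 and 2 and above it in LPS replicate 3.

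Of 9 tested co-stimulatory and co-inhibitory genes 6 were above 0. CD40, the receptor for T cell help, had 14.2, 17.5 and 15.7 CPM in the CON libraries and 47.3, 10.5 and 139 CPM in the LPS libraries (2.06 ± 0.73, adjusted p = 0.307, edgeR). It was called by DESeq2 (2.10, adjusted p = 0.0462) and by edgeR without LPS replicate 2 (2.57, adjusted p = 0.00706). CD274, which encodes PD-L1, had 5.45, 1.41 and 3.56 CPM against 9.59, 0.982 and 52.2 CPM (2.58 ± 1.07, adjusted p = 0.368, edgeR). It was called without LPS replicate 2 (3.14, adjusted p = 0.0287, edgeR) and with no filter on low counts (2.56, adjusted p = 1.9e-06). ICAM1, an adhesion molecule, had a log2 fold change of 1.48 ± 0.76 and was called with no filter only. With no filter, 7 genes of the wider pathway were called, the others being IFNGR2, SOCS1, SOCS3, SLA-DMB and CD40 (SLA-DMB lower, the rest higher), beside 2.28% of all genes called higher and 1.48% called lower in that fit. In CD40 and CD274, too, LPS replicate 2 was below every CON library.

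Markers of the cells in which these genes are used were present. The 8 hepatocyte markers summed to 73645 to 95285 CPM in the CON libraries and 61956 to 127778 CPM in the LPS libraries, which fits the liver label. All 8 macrophage markers were tested and all had estimates below 0 (median log2 fold change -0.47); they summed to 1893 to 3160 CPM in the CON libraries and to 1346, 2255 and 1838 CPM in LPS replicates 1, 2 and 3. LPS replicate 2, lowest for all 9 genes among the LPS libraries, was the highest of them in this sum. CD163, CSF1R, C1QA, C1QB, C1QC and VSIG4 had their highest LPS value in that library. CD68 (29.4, 56.4 and 63.7 CPM in LPS replicates 1, 2 and 3) and MARCO (178, 22.1 and 81.5 CPM) did not. B cell markers summed to 12.8 to 27.4 CPM against 9.81 to 20.6 CPM with 5 of 7 tested, and T or NK cell markers to 141 to 179 CPM against 79.4 to 162 CPM with 8 of 9 tested. Dendritic cell markers, 4 of 7 tested and 3 of them below 0, summed to 36.6 to 56.2 CPM against 76.7 to 534 CPM. That higher sum was carried by BATF3, singled out after its values had been seen, at 19.3, 28.9 and 25.9 CPM in the CON libraries and 312, 56.8 and 523 CPM in the LPS libraries. Neutrophil markers, 3 of 7 tested, summed to 11.5 to 20.4 CPM in the CON libraries and to 163, 71.0 and 298 CPM in LPS replicates 1, 2 and 3, and S100A8 was called higher (adjusted p = 0.0371, edgeR). The LPS libraries thus stood in the same order by neutrophil marker sum as by the values of each of the 9 genes except CIITA. That order was not particular to neutrophil markers. The sums of the dendritic cell markers, the class I loading genes and the interferon-gamma route had it too. Those of the hepatocyte, macrophage, endothelial, B cell and T or NK cell markers did not. How many of all tested genes had this order was not counted. The marker sums include genes below the filter, among them MMP8 with 0 to 271 counts per library. No marker of any list was at 0 in every library. The part that the makeup of cells had in the values of the 9 genes was not tested.

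For the 7 members whose log2 CPM spanned more than 1 across the 6 libraries, the gene with the most similar profile was sought among 8612 genes by the root mean square difference of log2 CPM relative to the CON mean. This is a description over 6 libraries of shared depth and scaling. The most similar genes were SLC25A28 for TAP2 (0.18), IFNAR2 for PSMB8 (0.11), PI4K2B for PSMB9 (0.23), FBXO39 for TAP1 (0.21), ADAR for PSMB10 (0.11), VAMP5 for CIITA (0.11) and SCD for NLRC5 (0.12). The closest pair among the members themselves was CIITA and PSMB10 (0.19). TAP2 was most like PSMB9 among the members (0.30) and TAP1 most like NLRC5 (0.33). Among the 8612 genes the nearest member ranked from 9 (for PSMB9) to 121 (for PSMB8), so genes outside the members always lay closer.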

How the data were processed

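The deposited table holds raw read counts by gene and library, made by the authors, for 31908 Ensembl pig identifiers with coordinates and gene length; the values are not normalized. The submitters' processing notes name cutadapt 1.9.3 and HISAT2, and the builds galGal6 and hg38, neither of which is a pig build. The counting program and the build behind the counts: not given in the sources used here. The library kit was directional. Columns were matched to libraries by the group and replicate number in their names, and 0 sample columns were left unmapped; the labels list 2 sequencing entries for each of CON replicates 1 and 2, where the table has 1 column. The immunoprecipitated libraries were not analysed here. Symbols came from a table pairing 15029 identifiers with a symbol.

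Groups were compared with edgeR 4.0.16 in R 4.3.3 (filterByExpr with a minimum count of 10, TMM, robust quasi-likelihood test, group as the only term). This left 12774 genes, 10756 of them with a symbol. CPM are TMM-scaled; the TMM factor was 0.735 for LPS replicate 3 and 0.979 to 1.11 otherwise. The study's methods give an unpaired two-tailed comparison and nothing specific to RNA-seq. Standard errors were obtained by dividing each log2 fold change by the root of its F statistic. Ratios within a library were tested with exact permutation tests (scipy 1.17.1). Libraries of the same group differed by more than counting noise, since a chi-square of counts within a group gave at least 46.8 per gene. This chi-square does not show whether libraries came from different piglets, and it was not computed across the groups. The scripts were tested on simulated data.

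The alternatives tried were DESeq2 1.42.0 and limma-voom (limma 3.58.1) as tools, RLE factors or total counts for scaling, no filter or a minimum of 10 counts in every library, a block for the replicate number, each library left out, and no fold threshold or a 2-fold one; for the ratios also adding 0.5 to each count and, chosen after the data were seen, the summed core subunits as denominator and leaving out each library for the ratios to TAP1 and to CD74. Members, lists and rules were chosen with earlier results of these data known. The names HLA-DRA and HLA-DOB were matched to the SLA genes after the symbol table had been seen. The text names all members, the tested class I, class II and constitutive proteasome genes, up to 3 genes with the smallest unadjusted p from each other pathway list, and the gene most like each member with a log2 CPM span over 1 (mean CPM of at least 5); other names are marked as singled out, or are markers. The values of some single genes are left out of the text.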

Additional observations from a re-analysis of the deposited data

How the results depend on the processing

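None of the 9 genes was called under any of the alternatives. Of 117 values of single members under the alternatives, 9 had the other sign. CD74 was at -0.10 with scaling to total counts, -0.14 without CON replicate 1 and -0.11 without LPS replicate 3, up to 0.32 without CON replicate 3. PSMB10 was at -0.021 with total counts, -0.063 without CON replicate 2, -0.01 without LPS replicate 1 and -0.04 without LPS replicate 3, up to 0.44 without LPS replicate 2. CIITA ranged from -0.0095 without LPS replicate 1 to 0.50 without LPS replicate 2, and TAP1 from -0.96 without LPS replicate 3 to 0.18 without LPS replicate 2. Scaling to total counts moved the median of all genes from 0.01 to -0.12. The cause of these changes was not tested.

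Genes called higher and lower numbered 7 and 0 in the main comparison, 8 and 1 with RLE factors, 11 and 1 with total counts, 536 and 349 without a filter, 0 and 0 with at least 10 counts in every library, 275 and 142 by DESeq2 and 4 and 2 by limma-voom. Leaving out 1 library gave 0 to 512 higher and 0 to 470 lower, with 512 and 470 without LPS replicate 2, 39 and 19 without LPS replicate 3, 1 and 0 without LPS replicate 1, and 0 and 0 without any 1 CON library. Of the wider pathway, 0 genes were called in the main comparison, 7 without a filter, 2 by DESeq2 and 0 to 11 with 1 library left out. Leaving out a library leaves 2 in its group. Same-numbered libraries had correlations of -0.22, 0.21 and 0.03 and were not paired; with the replicate block 42 genes were called higher and 9 lower, and 0 members.

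The ratio of PSMB8 to PSMB7 (log2 difference) ranged from -0.25 to 0.48 with 1 library left out, that of PSMB9 from -0.37 to 0.51 and that of PSMB10 from -0.59 to -0.11; PSMB8 was at -0.25 without LPS replicate 3, and PSMB9 at 0.51 without LPS replicate 2 and 0.13 against the summed core. The sum of PSMB5, PSMB6 and PSMB7 could not be formed, since PSMB7 alone was paired with an identifier. NLRC5 to TAP1 was at 0.04 without CON replicate 1, 0.01 without CON replicate 3 and 0.23 without LPS replicate 3, and at -0.24 without LPS replicate 2. CD74 to HLA-DRA was at -0.10 without CON replicate 1 and -0.05 without LPS replicate 1, and CD74 to SLA-DQB1 at -0.10 and -0.20; without LPS replicate 3 they were at 0.65 and 0.38. With 3 libraries a group and total counts down to 4348478, intervals as wide as -0.32 to 2.09 (TAP2) limit what can be seen.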
